A study of Mus musculus with 4 samples.

Results

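The amino acid transporter families described here are the mouse genes of the Slc1, Slc3, Slc6, Slc7, Slc36, Slc38 and Slc43 solute carrier families. They were taken by symbol alone, as every gene of the deposited table whose name is one of these family names followed by "a" and a number, which gave 59 of 23361 genes. RNA had been sequenced from 2 libraries of Nfatc1+ cells and 2 libraries of Shh+ cells, both sorted from embryonic back skin at E17.5 (days of gestation), to look for what sets the Nfatc1+ cells of the hair peg, an early stage of the growing hair follicle, apart from its Shh+ cells. Nfatc1+ cells came from Nfatc1-CreER::Rosa-stop-tdTomato::K14-H2BGFP embryos and Shh+ cells from Shh-CreER::Rosa-stop-tdTomato::K14-H2BGFP embryos. In both, tamoxifen given to the pregnant mouse at E15.5 switched on red tdTomato in cells with active CreER and in their progeny, while K14-H2BGFP gave epithelial nuclei a green label, and cells with both colours were sorted. The GEO treatment note names tamoxifen for Nfatc1+ cells only, and the study's methods name it for both. Nfatc1+ cells were released from whole skin in 0.25% trypsin at 37°C over 16 min. For Shh+ cells, the skin was treated for 1 h with dispase (0.4 mg/ml), the epidermis was taken off, and the dermis with its hair pegs was kept in 0.25% trypsin for 10 min. The population and the way of release cannot be told apart in any comparison below.

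Cells take up and exchange amino acids through membrane carriers that differ in what they carry and in what drives them. Sodium-coupled carriers such as those of system A, in the Slc38 family, concentrate small neutral amino acids and glutamine inside the cell, and exchangers of the Slc7 family can then trade these for leucine and other large or cationic amino acids. Most Slc7 exchangers are light chains that reach the cell surface only when bound to a heavy chain, Slc3a2 (also known as 4F2hc or CD98) or Slc3a1. In growing epithelia these carriers supply protein synthesis and feed mTORC1, the growth kinase that senses amino acids.

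The genes that drove the labels followed them. Nfatc1 was at 112.3 and 116.1 FPKM in Nfatc1+ cells, against 25.3 and 20.1 FPKM in Shh+ cells. Shh was at 10.5 and 11.7 FPKM in Nfatc1+ cells, against 143.9 and 144.7 FPKM in Shh+ cells. The epithelial keratin Krt14 was at 1232 and 1204 FPKM in Nfatc1+ cells, against 1030 and 1086 FPKM in Shh+ cells. Of 9 hair follicle stem cell markers, Nfatc1 among them, 8 were called higher in Nfatc1+ cells, beside 18.9% of all tested genes. All 8 placode and lower follicle markers, Shh among them, were called higher in Shh+ cells, beside 18.1% of all tested genes. Since the lists hold the genes used for the sort, these counts are no independent check of it. FPKM divide the fragments of a gene by its transcript length and by the library's mapped fragments, so levels can be compared between genes. No read counts came with them, and the absolute depth is unknown. Judged by what 1 fragment was worth among low genes, relative to Nfatc1+ replicate 1, depth was 0.96 for Nfatc1+ replicate 2, while Shh+ replicate 1 had 0.917. Shh+ replicate 2 had 0.563, which makes it the least precise library for low genes. Nothing in the sources used here says whether replicate libraries stand for separate animals, so a p-value speaks only of the spread among these 4 libraries, and that spread may be technical. All differences below are Nfatc1+ minus Shh+ on the log2(FPKM + 0.5) scale, where the added 0.5 makes the change of a low gene look smaller than it was, while folds are ratios of mean FPKM. In these sorted pools, fewer cells of a type and less RNA per cell cannot be told apart.

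Of the 59 transporter genes, 31 averaged 0.5 FPKM or more across all libraries and were tested among 12750 genes. With limma, at an adjusted p under 0.05, 8 were called higher in Nfatc1+ cells and 3 were called higher in Shh+ cells, while 20 were not called. The 8 are 25.8% of the tested transporters, beside 18.9% of all tested genes. The 3 are 9.68%, beside 18.1% of all tested genes. At a log2 difference of at least 1, a single transporter, Slc7a8, was higher in Nfatc1+ cells (3.23%, beside 5.81% of all tested genes). All 3 of those called higher in Shh+ cells, Slc43a1, Slc38a1 and Slc7a10, passed that limit (9.68%, beside 4.77%). Slc7a10 was tested only through its Shh+ libraries (mean 1.81 FPKM, against 0.477 FPKM in Nfatc1+ cells). Its place in both counts of 3 therefore depends on the filter. Both Nfatc1+ libraries stood above both Shh+ libraries for 12 tested transporters (38.7%, beside 35.1% of all tested genes), and both Shh+ libraries above both Nfatc1+ libraries for 7 (22.6%, beside 35.6%). The median log2 difference was 0.00018 over the 31 transporters and -0.0018 over all tested genes, and the median size of the difference, whatever its direction, was 0.32 over the transporters and 0.24 over all tested genes. Without Nfatc1+ replicate 2 the 8 calls became 4, while the 3 became 4. With no filter on low values, when all 23361 genes were tested, Slc1a4, Slc38a2, Slc6a17, Slc7a7 and Slc7a10 lost their calls (limma adjusted p between 0.0852 and 0.269). When each library was left out in turn, 7 of the 11 called transporters kept their calls every time: Slc38a1, Slc38a4, Slc43a1, Slc6a6, Slc7a6, Slc7a8 and Slc7a10. Leaving out a library leaves its group with 1 library, which is then assumed to vary like the other group, so calls lost or gained in this way are descriptions of these libraries.

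**Figure D1:**
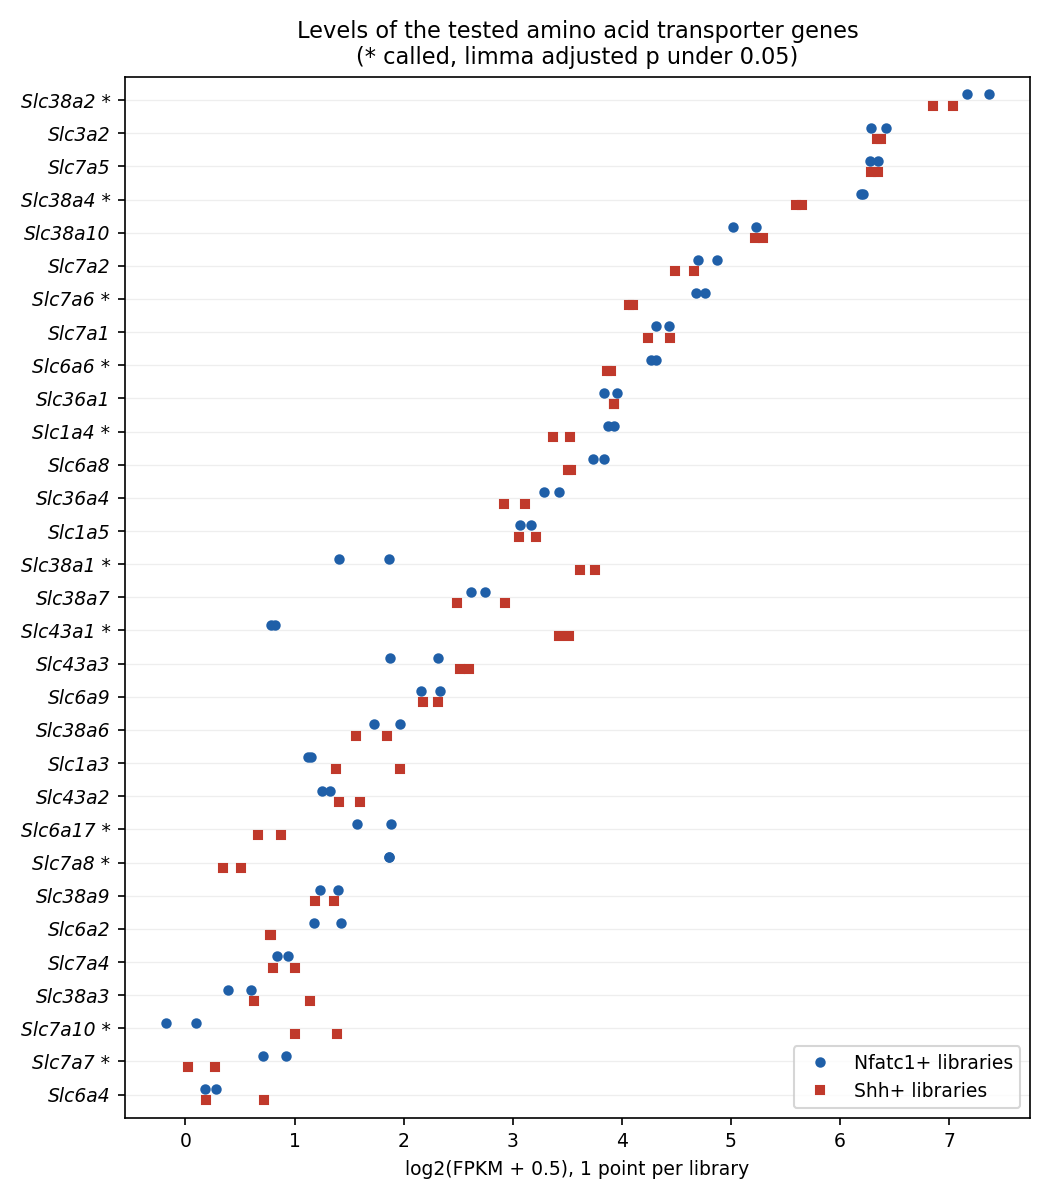
Level of each of the 31 tested transporter genes in each library, as log2(FPKM + 0.5) on the x axis, with genes ordered by their mean level. Blue circles are the 2 Nfatc1+ libraries and red squares the 2 Shh+ libraries. Slc38a2, Slc3a2, Slc7a5 and Slc38a4 lie highest in both groups, and the widest gaps are those of Slc43a1 and Slc38a1, with the Shh+ libraries to the right.

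A few carriers made up most of the transporter RNA. The FPKM of all 59 genes summed to 591.5 and 639.6 in Nfatc1+ cells, against 549.7 and 563.6 in Shh+ cells. Only 4 genes had a mean of 50 FPKM or more: the system A carriers Slc38a2 and Slc38a4, the heavy chain Slc3a2 and its light chain Slc7a5 (also known as LAT1), which imports leucine and other large neutral amino acids. Slc38a2 alone gave 24.1% and 25.6% of the sum in Nfatc1+ cells, against 21.0% and 23.2% in Shh+ cells. The 6 highest genes stood in the same order in both groups, with Slc38a2 first, then Slc3a2, Slc7a5, Slc38a4, Slc38a10 and Slc7a2. Slc3a2 and Slc7a5 were neighbours in that order with overlapping values, and their order carries no weight. Lower down, Slc38a1 was the 21st of the 31 in Nfatc1+ cells and the 11th in Shh+ cells, Slc43a1 the 28th in Nfatc1+ cells and the 13th in Shh+ cells, and Slc7a8 the 18th in Nfatc1+ cells and the 30th in Shh+ cells.

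The other 28 genes were too low to test. Of these, 9 were listed at 0 in all 4 libraries, among them Slc38a5, Slc38a8, Slc38a11, Slc7a12 and Slc7a13. The remaining 19 were above 0 somewhere but had a mean under 0.5 FPKM. They include 4 of the 5 glutamate and aspartate carriers. By family, 3 of 7 Slc1 genes, 1 of 2 Slc3 genes, 6 of 17 Slc6 genes, 8 of 15 Slc7 genes, 2 of 4 Slc36 genes, 8 of 11 Slc38 genes and 3 of 3 Slc43 genes were tested. The gene just outside the limit was Slc7a11, the light chain of the cystine and glutamate exchanger (xCT), at 0.294 and 0.318 FPKM in Nfatc1+ cells, against 0.839 and 0.511 FPKM in Shh+ cells. Its Shh+ values were the higher, and in the 4 alternative settings in which it could be tested with limma the adjusted p lay between 0.125 and 0.322. Slc7a10 was the only tested gene with the mean of one group under the limit (0.477 FPKM in Nfatc1+ cells, against 1.81 FPKM in Shh+ cells). Near the threshold of the test, Slc7a7 lay just inside (adjusted p = 0.04999 by limma) and Slc6a8 just outside (adjusted p = 0.051).

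The Slc43 family held the gene with the largest difference. Slc43a1 (also known as LAT3), a sodium-independent carrier that lets leucine and other large neutral amino acids pass, was at 1.22 and 1.26 FPKM in Nfatc1+ cells, against 10.9 and 10.2 FPKM in Shh+ cells. The groups lay far apart and each replicate pair was close. The log2 difference was -2.67 ± 0.13 (SE, 95% interval -2.97 to -2.37, limma adjusted p = 1.41e-05), an 8.52-fold higher mean in Shh+ cells, which made it the 83rd of the 12750 tested genes in that direction. The gene lies at chr2:84838850-84863594 on the plus strand (GRCm38, GENCODE vM21). Slc43a3, which carries purine nucleobases rather than amino acids, starts 73.0 kb away on the same chromosome. Genes of other families between them were not looked for. Slc43a3 was at 3.17 and 4.49 FPKM in Nfatc1+ cells, against 5.55 and 5.21 FPKM in Shh+ cells (log2 difference -0.46, 95% interval -0.86 to -0.06, limma adjusted p = 0.0736). It was not called on all 4 libraries, and without Nfatc1+ replicate 2 it was (adjusted p = 0.0254). Slc43a2 (also known as LAT4), a carrier of the same kind as Slc43a1, was at 2.01 and 1.88 FPKM in Nfatc1+ cells, against 2.53 and 2.15 FPKM in Shh+ cells, and was not called (limma adjusted p = 0.341). Slc43a1 made up 19.0% and 16.6% of the family's FPKM in Nfatc1+ cells, against 57.4% and 58.1% in Shh+ cells. Slc43a2, Slc43a3, Slc6a8, Slc6a2, Slc36a4 and the other genes outside the naming rule were chosen after their values were seen.

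System A, whose 3 carriers couple the uptake of alanine, serine, glutamine and other neutral amino acids to sodium, differed in both directions. Slc38a1 (SNAT1) was at 2.15 and 3.14 FPKM in Nfatc1+ cells, against 12.99 and 11.8 FPKM in Shh+ cells. Its groups did not overlap, and the log2 difference was -2.05 ± 0.17 (SE, 95% interval -2.45 to -1.66, limma adjusted p = 0.000143), a 4.69-fold higher mean in Shh+ cells. Slc38a4 (SNAT4) was at 72.6 and 73.8 FPKM in Nfatc1+ cells, against 48.0 and 49.9 FPKM in Shh+ cells. It was thus high in all libraries and higher in both Nfatc1+ ones, by 0.58 ± 0.06 on the log2 scale (SE, 95% interval 0.44 to 0.72, limma adjusted p = 0.000413). Slc38a2 (SNAT2), the carrier whose gene many cell types switch on when amino acids run short, was at 142.8 and 164.0 FPKM in Nfatc1+ cells, against 115.3 and 130.8 FPKM in Shh+ cells. The gap between its groups was smaller than the gap between replicates, and the difference was 0.32 ± 0.09 (SE, limma adjusted p = 0.0322). That call was lost without Nfatc1+ replicate 2 (adjusted p = 0.146) and without Shh+ replicate 1 (0.139).

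The 3 system A genes follow one another among the transporter genes of chromosome 15, all on the minus strand: Slc38a1 at chr15:96571418-96642913, Slc38a2 at chr15:96687392-96699730 and Slc38a4 at chr15:96994820-97055956 (GRCm38, GENCODE vM21). Genes of other families between them were not looked for. The gaps between them are 44.5 kb and 295.1 kb, and the first gap lies between Slc38a1 and the 2 genes called in the other direction. Summed over the 3 genes, system A came to 217.5 and 241.0 FPKM in Nfatc1+ cells, against 176.3 and 192.4 FPKM in Shh+ cells. With 2 libraries against 2, no permutation test of such a sum could pass, and the sums are given as a description. Slc38a1 supplied 0.989% and 1.30% of it in Nfatc1+ cells, against 7.37% and 6.13% in Shh+ cells. Of the other Slc38 genes, the 5 tested were not called. They include Slc38a10 at 32.0 and 36.9 FPKM in Nfatc1+ cells, against 38.8 and 36.8 FPKM in Shh+ cells (log2 difference -0.13, 95% interval -0.34 to 0.07, limma adjusted p = 0.266), and Slc38a9, the lysosomal arginine sensor that acts on mTORC1, at 1.85 and 2.13 FPKM in Nfatc1+ cells, against 2.07 and 1.78 FPKM in Shh+ cells (limma adjusted p = 0.873).

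**Figure D2:**
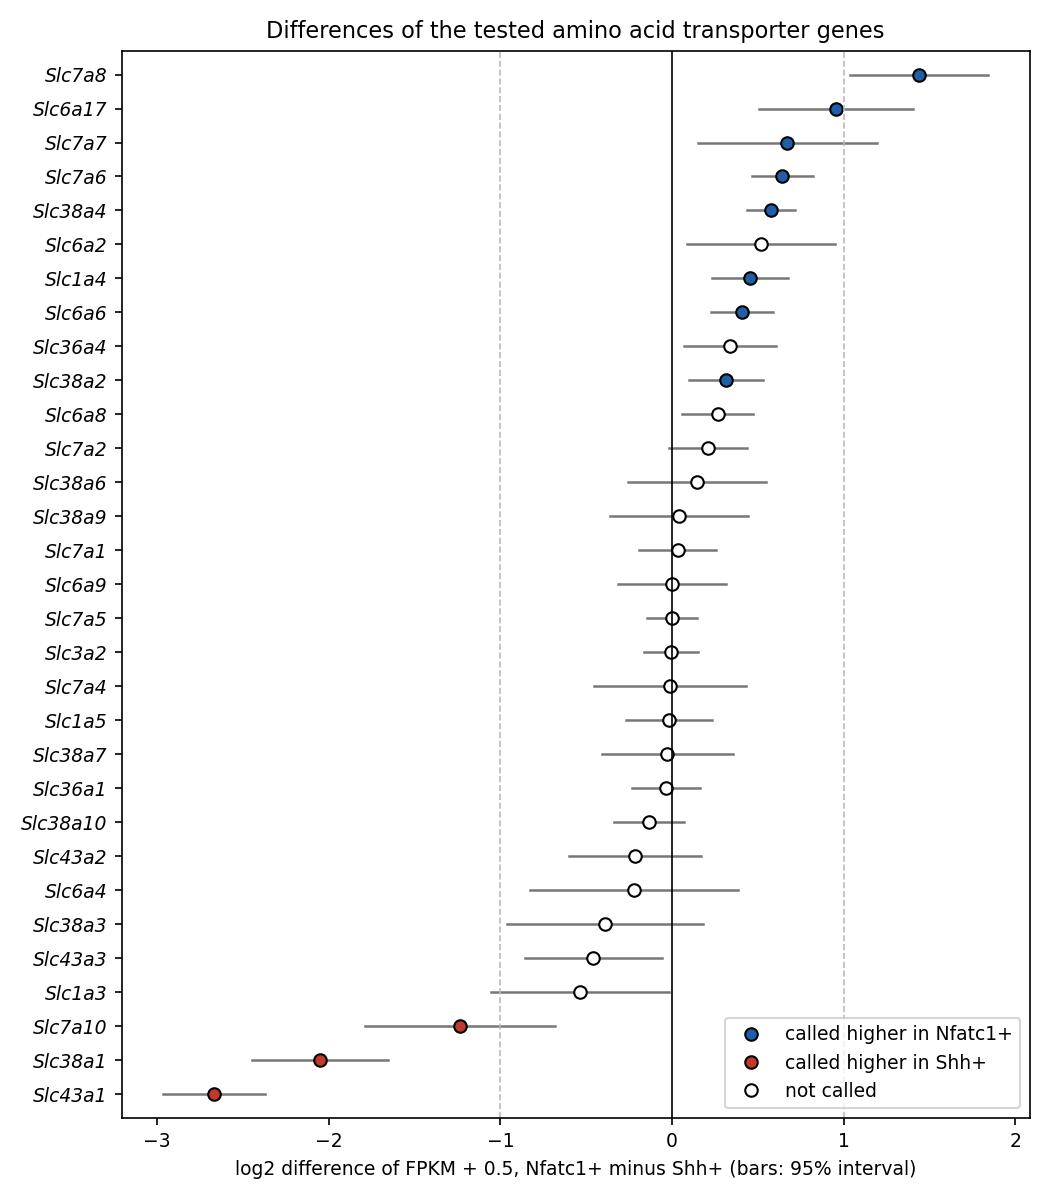
Log2 difference of FPKM + 0.5 for the 31 tested transporter genes, Nfatc1+ minus Shh+, with the 95% interval of the limma fit as bars. Filled points are called at an adjusted p under 0.05, blue for higher in Nfatc1+ and red for higher in Shh+, and dashed lines mark a difference of 1 in either direction. Slc43a1 (-2.67), Slc38a1 (-2.05) and Slc7a10 (-1.24) form the lower tail and Slc7a8 (1.44) the upper end.

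The levels of the heavy chain Slc3a2 and its main light chain overlapped between the groups. Slc3a2 was at 77.7 and 85.2 FPKM in Nfatc1+ cells, against 80.5 and 82.8 FPKM in Shh+ cells. The groups overlapped, and the 95% interval of the log2 difference ran from -0.16 to 0.15 (limma adjusted p = 0.961). Slc7a5 was at 77.1 and 81.2 FPKM in Nfatc1+ cells, against 81.1 and 77.2 FPKM in Shh+ cells, and its interval ran from -0.15 to 0.15 (limma adjusted p = 0.994). The other heavy chain, Slc3a1, which pairs with the cystine light chain of kidney and gut, was too low to test at 0.0802 and 0.0865 FPKM in Nfatc1+ cells, against 0.173 and 0.349 FPKM in Shh+ cells. Slc3a2 lies at chr19:8706882-8723369 and Slc7a5 at chr8:121881150-121907694, both on the minus strand.

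The less abundant light chains differed, in both directions. Slc7a8 (LAT2), an exchanger of small and large neutral amino acids, was at 3.15 and 3.14 FPKM in Nfatc1+ cells, against 0.766 and 0.926 FPKM in Shh+ cells. The groups lay well apart, at a log2 difference of 1.44 ± 0.17 (SE, 95% interval 1.04 to 1.84, limma adjusted p = 0.000768) and a 3.72-fold higher mean in Nfatc1+ cells. Slc7a6 (y+LAT2), which trades cationic for neutral amino acids, was at 26.7 and 25.2 FPKM in Nfatc1+ cells, against 16.2 and 16.6 FPKM in Shh+ cells. It was the second light chain in level after Slc7a5, and its difference was 0.64 ± 0.07 (SE, 95% interval 0.47 to 0.82, limma adjusted p = 0.000713). Slc7a7 (y+LAT1), an exchanger of the same kind, was at 1.40 and 1.13 FPKM in Nfatc1+ cells, against 0.515 and 0.705 FPKM in Shh+ cells. Its difference of 0.67 ± 0.22 (SE) only just passed, and the call was lost whichever library was left out (limma adjusted p between 0.0669 and 0.221). Slc7a7 (chr14:54369442-54417780) and Slc7a8 (chr14:54722209-54781946) lie 304.4 kb apart on the minus strand of chromosome 14. They follow one another among the transporter genes only, and other genes between them were not looked for.

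Slc7a10 (Asc-1), an exchanger of small neutral amino acids that include D-serine, went the other way. It was at 0.384 and 0.570 FPKM in Nfatc1+ cells, against 2.13 and 1.50 FPKM in Shh+ cells. Both groups were low and did not overlap, and the log2 difference was -1.24 ± 0.23 (SE, 95% interval -1.79 to -0.68, limma adjusted p = 0.00633), a 3.80-fold higher mean in Shh+ cells. It passed the filter only through those Shh+ libraries, and its call was lost with no filter (limma adjusted p = 0.0983). Whether strand was used in counting is not given in the sources used here, and in GENCODE vM21 the gene (chr7:35186385-35201114, plus strand) shares 377 of its 2111 exonic bases with Lrp3 on the opposite strand. Lrp3 was at 6.22 and 4.40 FPKM in Nfatc1+ cells, against 11.7 and 10.7 FPKM in Shh+ cells (log2 difference -1.03), and its part in the Slc7a10 values was not tested. Slc7a7 likewise shares 232 exonic bases with Oxa1l, which was at 33.6 and 30.8 FPKM in Nfatc1+ cells, against 28.5 and 27.7 FPKM in Shh+ cells (log2 difference 0.19). In all, 9 of the 31 tested transporters share exonic bases with an annotated gene, 4 of them with a gene of the table, and none on the same strand.

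Together, the 6 light chains that pair with Slc3a2 (Slc7a5, Slc7a6, Slc7a7, Slc7a8, Slc7a10 and Slc7a11) came to 109.1 and 111.5 FPKM in Nfatc1+ cells, against 101.6 and 97.5 FPKM in Shh+ cells, which is 1.40 and 1.31 times the FPKM of Slc3a2 in Nfatc1+ cells and 1.26 and 1.18 times in Shh+ cells. Slc7a5 made up 70.7% and 72.8% of this sum in Nfatc1+ cells, against 79.8% and 79.2% in Shh+ cells. Slc7a6 made up 24.5% and 22.6% in Nfatc1+ cells, against 16.0% and 17.1% in Shh+ cells. The share of Slc7a5 was lower in both Nfatc1+ libraries than in both Shh+ libraries, while the levels of Slc7a5 itself overlapped. These shares were not tested.

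**Figure D3:**
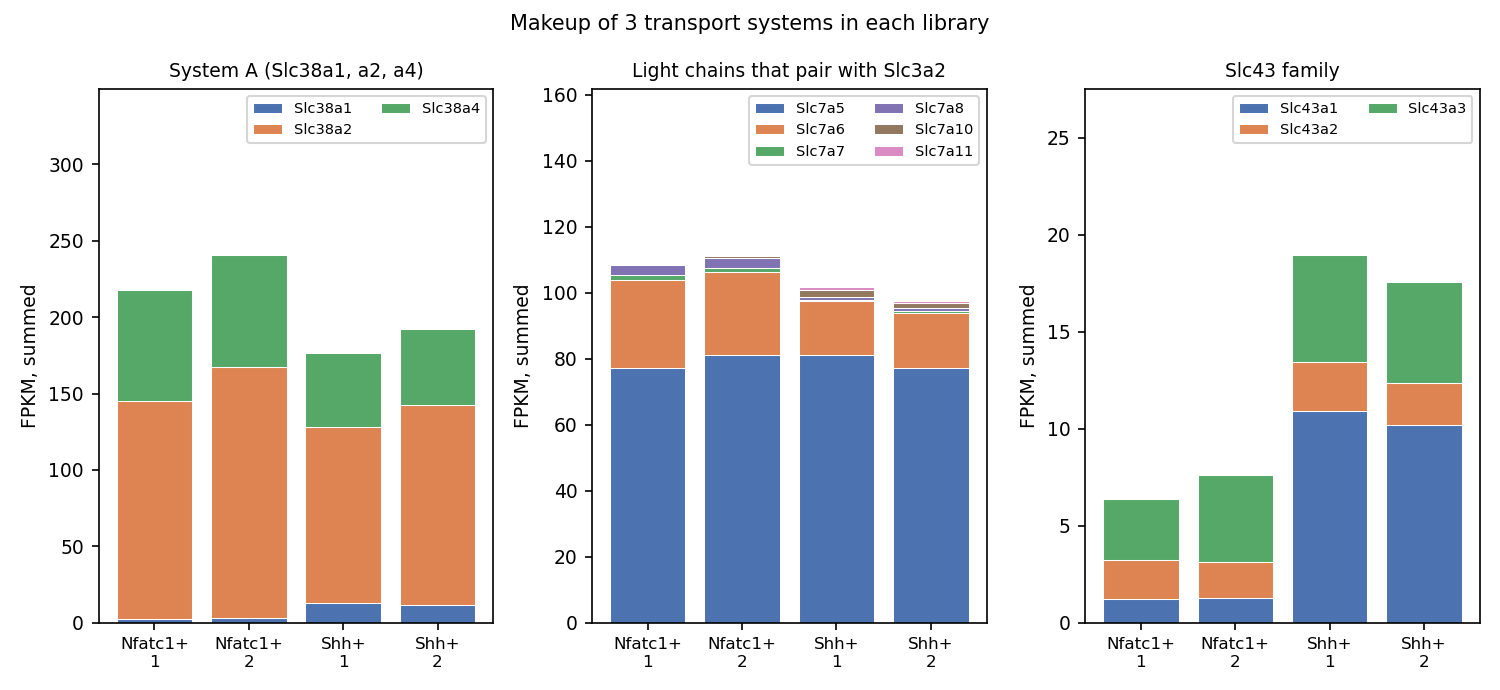
Summed FPKM of system A (left), of the light chains that pair with Slc3a2 (middle) and of the Slc43 family (right) in each library, stacked by gene on y axes that start at 0, with Nfatc1+ libraries left and Shh+ libraries right. Slc38a2, Slc7a5 and, in Shh+ cells, Slc43a1 are the widest bands, and the Slc43 family sums to 6.39 and 7.63 FPKM in Nfatc1+ cells, against 19.0 and 17.6 FPKM in Shh+ cells.

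Of the cationic amino acid carriers, which bring arginine and lysine into the cell, neither of the 2 abundant ones was called. Slc7a2 (CAT2) was at 25.5 and 28.8 FPKM in Nfatc1+ cells, against 21.9 and 24.9 FPKM in Shh+ cells (log2 difference 0.21, 95% interval -0.02 to 0.44, limma adjusted p = 0.127). Slc7a1 (CAT1) was at 19.4 and 21.1 FPKM in Nfatc1+ cells, against 18.4 and 21.2 FPKM in Shh+ cells, with overlapping groups (limma adjusted p = 0.819). Slc7a4, a relative with no known amino acid transport, was also not called (limma adjusted p = 0.966).

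In the Slc1 family, the neutral exchangers differed from each other in their call. Slc1a4 (ASCT1), which exchanges alanine, serine and cysteine, was at 14.1 and 14.7 FPKM in Nfatc1+ cells, against 9.83 and 11.0 FPKM in Shh+ cells. The difference was 0.46 ± 0.09 (SE, limma adjusted p = 0.0091), and the call was lost without Nfatc1+ replicate 2 (adjusted p = 0.0544). Slc1a5 (ASCT2), the glutamine exchanger, was at 8.48 and 7.90 FPKM in Nfatc1+ cells, against 8.79 and 7.83 FPKM in Shh+ cells. Its groups overlapped, with an interval of the log2 difference from -0.27 to 0.23 (limma adjusted p = 0.91). Whether these genes differ from each other in their response was not tested. Slc1a3 (GLAST), the only glutamate and aspartate carrier that could be tested, was at 1.68 and 1.72 FPKM in Nfatc1+ cells, against 2.11 and 3.40 FPKM in Shh+ cells. Both Shh+ values were the higher but lay far apart, and the difference of -0.54 ± 0.22 (SE, 95% interval -1.05 to -0.02) was not called on all 4 libraries (limma adjusted p = 0.098). Without Shh+ replicate 1 it was called (adjusted p = 0.0248).

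The Slc6 family, sodium- and chloride-coupled carriers best known from nerve endings, gave 2 calls, both higher in Nfatc1+ cells. Slc6a6, the taurine carrier, was at 19.4 and 18.8 FPKM in Nfatc1+ cells, against 14.4 and 14.1 FPKM in Shh+ cells. The replicates were close, and the log2 difference was 0.41 ± 0.08 (SE, 95% interval 0.23 to 0.59, limma adjusted p = 0.00612). Slc6a17, which loads neutral amino acids into synaptic vesicles of neurons, was at 2.48 and 3.19 FPKM in Nfatc1+ cells, against 1.09 and 1.34 FPKM in Shh+ cells. The difference was 0.96 ± 0.19 (SE, 95% interval 0.51 to 1.40, limma adjusted p = 0.00764), a 2.34-fold higher mean in Nfatc1+ cells, and the call was lost without Nfatc1+ replicate 2 (adjusted p = 0.052). The creatine carrier Slc6a8 was at 12.8 and 13.8 FPKM in Nfatc1+ cells, against 11.1 and 10.9 FPKM in Shh+ cells, and just missed the threshold (log2 difference 0.27, limma adjusted p = 0.051). The noradrenaline carrier Slc6a2 also missed it, at 1.76 and 2.18 FPKM in Nfatc1+ cells, against 1.22 and 1.21 FPKM in Shh+ cells (log2 difference 0.52, limma adjusted p = 0.0629). The glycine carrier Slc6a9 (adjusted p = 0.999) and the serotonin carrier Slc6a4 (0.536) were not called.

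Neither tested gene of the proton-coupled Slc36 family was called. Slc36a1, which moves small amino acids out of lysosomes and into cells, was at 13.8 and 15.0 FPKM in Nfatc1+ cells, against 14.7 and 14.7 FPKM in Shh+ cells (log2 difference -0.03, 95% interval -0.23 to 0.16, limma adjusted p = 0.776). Slc36a4, a carrier of proline and tryptophan, was at 9.25 and 10.2 FPKM in Nfatc1+ cells, against 8.15 and 7.07 FPKM in Shh+ cells (log2 difference 0.34, limma adjusted p = 0.0539). The Nfatc1+ values were the higher, and the gene was called without Shh+ replicate 1 (adjusted p = 0.0488).

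Several transporter genes are known targets of Atf4, the transcription factor of the amino acid response, which binds the C/EBP-ATF response element. The RefSeq promoters of 41 of the 59 genes (GRCm38.p6, 250 bases before to 50 after each start) were searched on both strands for that element as TGATGNAAN. It was present in 3 of the 41 genes (7.32%), beside 4.5% of the 27025 genes of the promoter table. They are Slc1a4 and Slc7a7, both called higher in Nfatc1+ cells, and Slc7a11, which was too low to test. Their matches are shown because they are the only ones found in this window among the 41 genes searched. Matched letters are in capitals, 5′ to 3′ on the strand of the gene, with the position of the first matched base from the start. Slc7a7 has several starts in the table, and its first site is numbered from the nearest one.
Slc1a4 (position -5, chr11:20332700-20332728, minus strand, element in reverse complement): tgcctcctgcGTTGCATCAtctccagcct
Slc7a7 (position -1, chr14:54417927-54417955, minus strand): acctagaagcTGATGCAACagcttccccg
Slc7a7 (position -141, chr14:54418067-54418095, minus strand): cgcttgggctTGATGAAAGgttcactggg
Slc7a11 (position -66, chr3:50443661-50443689, minus strand): ctcatgtggcTGATGCAAAcctggagaat
Slc7a11 (position -48, chr3:50443643-50443671, minus strand, element in reverse complement): acctggagaaTTTGCATCAtcatgcagcc

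For the other motifs, the E-box CACGTG was present in 8 of the 41 genes (19.5%, beside 8.09% of all genes), the antioxidant response element TGACNNNGC in 8 (19.5%, beside 14.0%) and the Tcf/Lef motif CTTTGAT in 4 (9.76%, beside 4.29%), each searched on both strands. Of the 8 genes with an E-box, 3 were high enough to test. A gene counted when any of its promoters matched. The 41 genes had 62 promoters and the 27025 genes had 32851, so the shares do not rest on equal numbers of promoters per gene. Of the 11 called transporters 9 were in the promoter table, and Slc38a1 and Slc6a6 were not matched. Among these 9, Slc43a1 had an E-box, Slc43a1, Slc38a2 and Slc7a6 had an antioxidant response element, and none had the Tcf/Lef letters in this window. The E-box of Slc43a1 is shown because that gene had the largest difference, with the motif in capitals. Its position is numbered from a RefSeq start that lies inside the gene as placed by GENCODE vM21, not from the first base of the gene.
Slc43a1 (position -64, chr2:84840249-84840274, plus strand): ggtctccctcCACGTGgcagccgtgg
A match is a description of the letters and not of a bound site.

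Genes that act with the transporters were read from 5 lists, chosen with earlier results of these data known. Their counts stand beside 18.9% of all tested genes called higher in Nfatc1+ cells and 18.1% called higher in Shh+ cells. The Atf4 and amino acid response list had 26 tested genes, of which 8 (30.8%) were called higher in Nfatc1+ cells, 5 (19.2%) higher in Shh+ cells and 13 were not called, with a median log2 difference of 0.06. The largest differences toward Nfatc1+ cells were those of Cebpb, a partner of Atf4 (107.5 and 99.9 FPKM in Nfatc1+ cells, against 38.6 and 29.9 FPKM in Shh+ cells, log2 difference 1.59), of the mitochondrial folate enzyme Aldh1l2 (1.46) and of the transcription factor Atf5 (1.02). Those toward Shh+ cells were the stress gene Nupr1 (-1.25), the proline synthesis enzyme Aldh18a1 (-0.75) and the cysteine synthesis enzyme Cth (-0.60). All 6 passed limma at an adjusted p of 0.0318 or less. Atf4 itself was at 91.0 and 92.8 FPKM in Nfatc1+ cells, against 89.5 and 93.1 FPKM in Shh+ cells. It was not called (limma adjusted p = 0.914), and neither were Asns (0.088), Ddit3 (0.207), Chac1 (0.0755) and Trib3 (0.240) of the same list. The rest of those called higher in Nfatc1+ cells were Psph (log2 difference 0.95), Psat1 (0.77), Ppp1r15a (0.72), Eif4ebp1 (0.56) and Phgdh (0.27). The rest of those called higher in Shh+ cells were Eif2ak3 (-0.51) and Mthfd2 (-0.35). The 5 genes higher in Shh+ cells became 2 without Nfatc1+ replicate 2 or without Shh+ replicate 1, and Cth lost its call in both (adjusted p = 0.138 and 0.108).

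Of 31 tested genes around mTORC1, 6 (19.4%) were called higher in Nfatc1+ cells, 3 (9.68%) higher in Shh+ cells and 22 were not called (median log2 difference 0.01). The first share is near that of all tested genes and is no result about these genes. Rragd, a Rag GTPase that brings mTORC1 to the lysosome, was at 0.915 and 1.56 FPKM in Nfatc1+ cells, against 15.7 and 16.6 FPKM in Shh+ cells (log2 difference -3.28, limma adjusted p = 3.02e-05). This was a larger difference than that of any transporter. Lamtor2, part of the lysosomal anchor of the Rag GTPases (-0.31), and Seh1l, of the GATOR complex (-0.21), also had more RNA in Shh+ cells. The 6 genes called higher in Nfatc1+ cells include other Rag GTPases, Rraga (0.42) and Rragc (0.26), and Tfeb (0.62), a lysosomal transcription factor that mTORC1 holds in the cytoplasm. The rest were the mTOR inhibitor Deptor (1.34) and the sestrins Sesn3 (29.1 and 32.4 FPKM in Nfatc1+ cells, against 10.9 and 13.6 FPKM in Shh+ cells, 1.30) and Sesn1 (0.65), both inhibitors of mTORC1. Without Nfatc1+ replicate 2, the 3 genes higher in Shh+ cells became 1, since Lamtor2 and Seh1l lost their calls (limma adjusted p = 0.0615 and 0.0756), and Seh1l also lost its call without any other single library.

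Of 21 aminoacyl-tRNA synthetases, which load amino acids onto tRNA, 1 (4.76%) was called higher in Nfatc1+ cells (Dars, log2 difference 0.23), 6 (28.6%) higher in Shh+ cells and 14 were not called. The largest of the 6 were Wars (-0.37), Iars (-0.33) and Cars (-0.33), so that none came near a difference of 1. The 6 became 1 without Nfatc1+ replicate 2 and 2 without Nfatc1+ replicate 1 or Shh+ replicate 1, and Dars lost its call without Nfatc1+ replicate 1 or either Shh+ replicate (limma adjusted p between 0.0777 and 0.188). The list is of cytosolic enzymes, apart from Fars2, which acts in mitochondria. Of 15 tested genes of glutathione and cystine handling, 7 (46.7%) were called higher in Nfatc1+ cells, 1 (6.67%) higher in Shh+ cells (Gpx4, -0.24) and 7 were not called, with a median of 0.24. Gpx4 lost its call without Nfatc1+ replicate 1 (limma adjusted p = 0.0504), Nfatc1+ replicate 2 (0.089) or Shh+ replicate 1 (0.0795). Cbs, an enzyme of cysteine synthesis (1.54), Gclc, the catalytic subunit of the rate-limiting enzyme of glutathione synthesis (64.0 and 64.3 FPKM in Nfatc1+ cells, against 22.5 and 23.6 FPKM in Shh+ cells, 1.46), and Ggct, of glutathione breakdown (1.36), had the largest differences. The light chain that supplies cystine, Slc7a11, had its lower values in the Nfatc1+ libraries (above). Of 13 tested amino acid and peptide carriers of other families, 3 (23.1%) were called higher in Shh+ cells and 10 were not called (median -0.10). They were Slc16a10, a carrier of aromatic amino acids (4.05 and 3.35 FPKM in Nfatc1+ cells, against 6.13 and 8.22 FPKM in Shh+ cells, log2 difference -0.86), the mitochondrial aspartate and glutamate carrier Slc25a13 (-0.76) and the peptide carrier Slc15a2 (24.8 and 22.8 FPKM in Nfatc1+ cells, against 34.5 and 37.3 FPKM in Shh+ cells, -0.59).

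**Figure D4:**
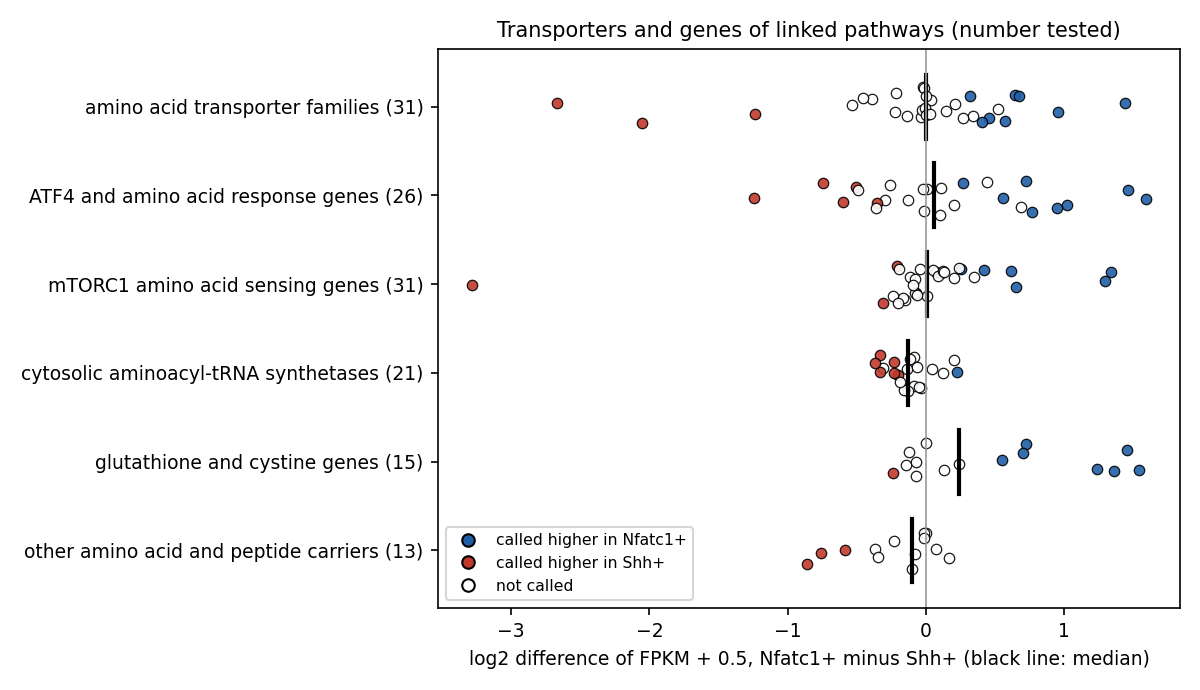
Log2 difference of FPKM + 0.5, Nfatc1+ minus Shh+, of the 31 tested transporter genes (top) and of the tested genes of 5 linked lists, with 1 point per gene, a black line at each list's median, and points spread vertically only to keep them apart. Blue points were called higher in Nfatc1+, red points higher in Shh+, and white points were not called. The medians lie between -0.13 for the synthetases and 0.24 for the glutathione and cystine genes, and the leftmost point is Rragd at -3.28.

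The sorted libraries also differed in marker genes of other cells, and the part of these in the transporter differences was not tested. For the counts that follow, 18.9% of all tested genes were called higher in Nfatc1+ cells and 18.1% higher in Shh+ cells. All 7 basal epidermis markers were called higher in Nfatc1+ cells (summed FPKM 8217 and 8109 in Nfatc1+ cells, against 4761 and 4733 in Shh+ cells). Suprabasal markers differed in both directions: 5 of 6 tested were called higher in Shh+ cells (sums of 867.6 and 916.1 in Nfatc1+ cells, against 1226 and 1022 in Shh+ cells). The remaining marker, Krtdap, was called higher in Nfatc1+ cells (357.0 and 340.3 FPKM, against 177.9 and 175.5 FPKM in Shh+ cells). Sebaceous gland markers were called higher in Nfatc1+ cells for 9 of 11 (253 and 221 in Nfatc1+ cells, against 105 and 84.2 in Shh+ cells), and Merkel cell markers for 7 of 9 (59.9 and 67.9 in Nfatc1+ cells, against 24.4 and 29.2 in Shh+ cells). The defining Merkel gene Atoh1 was at 6.28 and 7.31 FPKM in Nfatc1+ cells, against 0.240 and 0.232 FPKM in Shh+ cells. Of 17 stress genes that tissue digestion can induce, 13 were called higher in Nfatc1+ cells and 2 higher in Shh+ cells (sums of 4152 and 4471 in Nfatc1+ cells, against 3154 and 2842 in Shh+ cells). Melanocyte markers split the replicates: all 10 were higher in replicate 2 of both groups (32.3 and 67.1 in Nfatc1+ cells, against 8.92 and 44.7 in Shh+ cells), and 1 of them, Mitf, was called, higher in Nfatc1+ cells. Dermal fibroblast markers differed in both directions. Dcn was at 40.3 and 57.7 FPKM in Nfatc1+ cells, against 326.4 and 424.7 FPKM in Shh+ cells, and was called higher in Shh+ cells, while Col3a1 was at 76.6 and 162.0 FPKM in Nfatc1+ cells, against 59.8 and 53.6 FPKM in Shh+ cells, and was called higher in Nfatc1+ cells. The other 5 of the 7 were not called. In all, the list summed to 285.7 and 552.0 in Nfatc1+ cells, against 547.6 and 606.6 in Shh+ cells, or without Dcn to 245.3 and 494.4 in Nfatc1+ cells, against 221.2 and 181.9 in Shh+ cells. None of 5 tested endothelial markers was called by limma. Of 4 tested immune markers, 3 were not called. Aif1, a macrophage gene, was at 0.963 and 0.648 FPKM in Nfatc1+ cells, against 2.73 and 4.19 FPKM in Shh+ cells, and was called 4.30-fold higher in Shh+ cells. Cd207, which marks Langerhans cells, was at 0 in all 4 libraries.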

How the data were processed

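Per the study's methods, the authors aligned reads with TopHat (2.0.13) to GRCm38/mm10 and quantified genes with Cufflinks (2.2.1); the submitters' processing notes also name HTSeq, with no role. The deposited values are FPKM for 23361 genes in 4 libraries, with no counts, so the absolute depth and its counting error are unknown. The annotation and the use of strand are not given in the sources used here. Genes averaging 0.5 FPKM or more were tested on log2(FPKM + 0.5) with limma (3.58.1, in R 4.3.3; moderated with a mean-variance trend, no covariate, Benjamini-Hochberg adjustment over all tested genes), and a call is an adjusted p under 0.05. The limma script was tested on simulated data. The transporter families and the gene lists were chosen with earlier results of these data known. Genes named are the transporters called at a log2 difference of at least 1 in size, the 8 other called ones with the highest mean (7 existed), the 4 highest that were not called, the heavy and light chains, Slc1a3, Slc1a5, Slc7a11 and Slc38a2, and at most 3 called genes in each direction per list; others were chosen after their values were seen. Positions are from GENCODE vM21 (GRCm38) and promoters from RefSeq. Alternatives were pseudocounts of 0.1 and 1, no filter or a mean of at least 1 FPKM, common-sum, upper-quartile and quantile scaling, no trend, an unadjusted p under 0.01 with a ratio over 2, each library left out, and a replicate block.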

Additional observations from a re-analysis of the deposited data

How the results depend on the processing

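Under the 14 alternatives, no named gene changed direction while called, and Slc43a1, Slc38a1 and Slc7a8 were called in all of them (limma). The 8 transporters called higher in Nfatc1+ cells became 4 with no filter on low values, where 23361 genes were tested, and 2 with an unadjusted p under 0.01 and a ratio over 2, and ranged from 4 to 7 when single libraries were left out, the 4 being without Nfatc1+ replicate 2. The single transporter at least 2-fold higher in Nfatc1+ cells became 2 with a pseudocount of 0.1 and with a common sum, and ranged from 1 to 2 without single libraries. The counts higher in Shh+ cells stayed between 2 and 4. Slc7a10 lost its call only with no filter (limma adjusted p = 0.0983, over the alternatives 0.00484 to 0.0983), Slc6a17 also without Nfatc1+ replicate 2, Slc38a2 also with no trend (adjusted p = 0.106), and Slc7a7 was called in 3 of the 13 alternatives that tested it. With the replicate block, 7 transporters were called higher in Nfatc1+ cells and 3 higher in Shh+ cells, since Slc7a7 was lost (limma adjusted p = 0.0554). No label says what same-numbered libraries share, and with 2 pairs the correlation of their deviations (0.149 over 7257 genes) does not settle whether they are paired. The linked lists lost most with no filter: the Atf4 list had 3 higher in Nfatc1+ cells and 1 higher in Shh+ cells, the mTORC1 list 1 and 1, the synthetases 0 and 3 and the glutathione list 3 and 0, and the other carriers had 0 higher in Shh+ cells. Over all genes, no filter gave 1109 calls higher in Nfatc1+ cells and 900 higher in Shh+ cells, against 2406 and 2310. The 6 synthetases higher in Shh+ cells fell to 1 without Nfatc1+ replicate 2. Scaling moved the median of all genes by less than 0.02. The relative depth was lowest, at 0.563, for Shh+ replicate 2.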
